A study of Mus musculus with 6 samples.

Results

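Sphingosine-1-phosphate, abbreviated S1P, is a signaling lipid that guides blood cells between bone marrow, tissue and blood. The 9 genes described here encode its exporters, the kinases that make it, the lyase and the phosphatase that remove it, and receptors for it. They were taken by symbol from a table of 24110 genes, and all 9 were found. The set was selected on the measured fold change of 1 member, Mfsd2b, which was far lower after deletion of Prmt5. The values of Mfsd2b are therefore a description without a test, and the other 8 genes, which joined by their role in the pathway, were read from a fit over all genes. These genes, and the gene lists further below, were chosen with earlier results of these data known.

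RNA was sequenced from hematopoietic stem cells of C57BL/6 mice, sorted by the absence of lineage markers and CD48 and the presence of Sca-1 and CD150, 7 days after induction. In the Prmt5 KO group both alleles of Prmt5, an arginine methyltransferase, had been deleted (Δ/Δ), and in the Prmt5 fl/fl group both were floxed and undeleted. Each group held 3 libraries, each from the pooled marrow of 2 mice, and the groups were matched for litter and sex. The sources used here name neither the Cre driver nor the inducing agent, and give no age. Libraries held 37834096 to 41812565 reads in genes in Prmt5 KO and 42213314 to 44704636 in Prmt5 fl/fl, and all values below are scaled counts, that is, reads brought to a common total of 44704636. Prmt5 itself was at 897 to 1056 scaled counts in Prmt5 KO and at 6010 to 6076 in Prmt5 fl/fl, so the libraries matched their labels. These are bulk samples, in which fewer cells of a type and less RNA per cell cannot be told apart.

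Inside cells, sphingosine kinases add phosphate to sphingosine. The product is returned to sphingosine by phosphatases, cleaved for good by the S1P lyase, or carried out of the cell by dedicated exporters. Outside, it is sensed by a family of G protein-coupled receptors. The best known role in blood is the exit of lymphocytes and progenitor cells along a gradient that is low in tissue and high in blood and lymph.

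The gene set has a pair of exporters, MFSD2B of red cells and platelets and SPNS2, best known from endothelium. Their promoters are shown because Mfsd2b differed widely between the genotypes while the levels of Spns2 overlapped. The sequences run 5′ to 3′ on the minus strand of GRCm38.p6 (RefSeq), from 250 bases before to 50 after the annotated start. Capitals mark CACCC, a box read by KLF factors, and GATAAG, a core read by GATA factors, on either strand.
Mfsd2b promoter, chr12:4874310-4874609: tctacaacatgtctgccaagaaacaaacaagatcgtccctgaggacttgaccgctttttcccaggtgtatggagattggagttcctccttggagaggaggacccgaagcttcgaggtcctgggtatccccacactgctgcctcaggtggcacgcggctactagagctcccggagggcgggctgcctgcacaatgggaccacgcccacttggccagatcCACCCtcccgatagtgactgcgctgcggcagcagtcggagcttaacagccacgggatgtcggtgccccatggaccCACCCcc
Spns2 promoter, chr11:72474978-72475277: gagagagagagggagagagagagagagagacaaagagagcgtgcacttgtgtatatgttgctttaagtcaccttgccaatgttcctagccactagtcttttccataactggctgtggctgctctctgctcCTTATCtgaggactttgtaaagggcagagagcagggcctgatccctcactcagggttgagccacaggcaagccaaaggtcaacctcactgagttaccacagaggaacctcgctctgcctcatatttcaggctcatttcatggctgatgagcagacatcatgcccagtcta
The Mfsd2b window holds 2 copies of CACCC and 0 of GATAAG, and the Spns2 window 1 copy of GATAAG, read on the opposite strand, and 0 of CACCC. Of 32851 mouse promoter windows of the same length, 57.5% hold CACCC and 7.44% hold GATAAG. The motifs do not overlap each other in these windows, and a match is a matter of letters only. RefSeq promoters were matched for 8 of the 9 members. The RefSeq start of Spns2 lies inside the longer GENCODE locus.

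Mfsd2b was at 1599.9, 1467 and 1324 scaled counts in Prmt5 KO replicates 1 to 3, against 6662, 8976 and 8037 in Prmt5 fl/fl replicates 1 to 3. The 3 KO libraries lay close together and far below every fl/fl library. The means were 1464 ± 138 in Prmt5 KO and 7892 ± 1164 in Prmt5 fl/fl (SD, n = 3 each), so the KO level was 18.5% of the fl/fl level. The log2 fold change, KO minus fl/fl, was -2.42 with a standard error of 0.15. It stayed between -2.54 and -2.33 when each library was left out in turn. Of 14113 genes tested, 60 (0.425%) had a log2 fold change that low or lower. Mfsd2b lies on chromosome 12 (4862440 to 4874359, minus strand, GRCm38 with GENCODE M21), and no other annotated gene overlaps it.

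Spns2, the other exporter, did not separate the genotypes. It was at 15579, 16703 and 15086 scaled counts in Prmt5 KO replicates 1 to 3, against 17242, 19948 and 11991 in Prmt5 fl/fl replicates 1 to 3. The groups overlapped, and the spread came mainly from the fl/fl side, where replicate 3 was the lowest of all 6 libraries. The log2 fold change was -0.02 with a standard error of 0.19 and a 95% interval of -0.47 to 0.42 (limma, adjusted p = 0.958), and its sign turned with the scaling. Spns2 lies on chromosome 11 (72451638 to 72489904, minus strand). In GENCODE M21, 131 of its exonic bases are shared with Mybbp1a on the other strand, which this unstranded library kit cannot separate.

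Per kilobase of transcript, Spns2 was the more abundant exporter in both genotypes. It averaged 4638 ± 243 scaled counts per kilobase in Prmt5 KO and 4816 ± 1188 in Prmt5 fl/fl. Mfsd2b averaged 468 ± 44.1 per kilobase in Prmt5 KO and 2525 ± 372 in Prmt5 fl/fl (SD, n = 3 each). Mfsd2b thus made up 8.73% to 10.1% of the summed exporter level in the KO libraries and 29.6% to 42.2% in the fl/fl libraries. The summed level of both exporters was 4856 to 5376 per kilobase in Prmt5 KO and 6094 to 8732 in Prmt5 fl/fl.

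**Figure D1:**
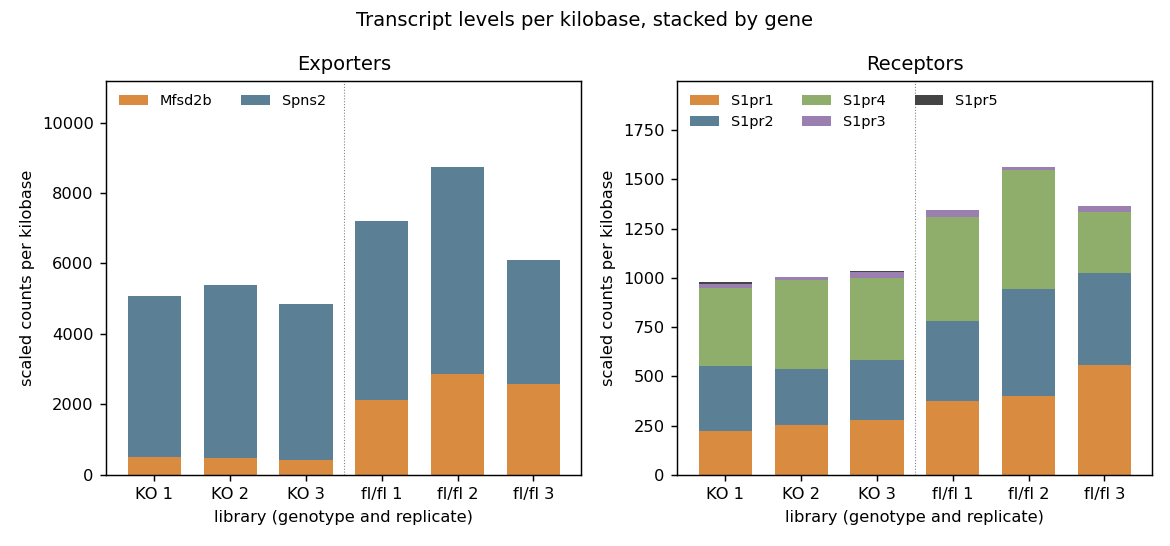
Stacked bars give the level per kilobase of each exporter (left) and each receptor (right) in the 6 libraries, in scaled counts per kilobase, with Prmt5 KO left of Prmt5 fl/fl. The Mfsd2b segment is small in all KO libraries while Spns2 fills most of the exporter level in each library, and the receptor sums are 976 to 1035 in KO and 1345 to 1562 in fl/fl.

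Of the 2 sphingosine kinases, Sphk2, the mainly nuclear and mitochondrial enzyme, carried most of the transcript. It was at 1703, 1998 and 1397 scaled counts in Prmt5 KO replicates 1 to 3, against 1836, 1856 and 1383 in Prmt5 fl/fl replicates 1 to 3. The genotypes overlapped almost fully, with a log2 fold change of 0.0042, a standard error of 0.19 and a 95% interval of -0.45 to 0.46 (limma, adjusted p = 0.993). In GENCODE M21, 912 of its exonic bases are shared with Dbp and Rpl18 on the other strand, where unstranded reads do not tell the genes apart. The annotation used for counting was not given, so the shared part of these counts is not known. Sphk1, the growth factor-responsive cytosolic kinase, was at 59.1, 25.7 and 86.2 scaled counts in Prmt5 KO replicates 1 to 3, against 339, 15 and 49.8 in Prmt5 fl/fl replicates 1 to 3. A single library, fl/fl replicate 1, stood far above the rest. The log2 fold change was -0.33 with a standard error of 1.05 and a 95% interval of -2.79 to 2.13 (limma, adjusted p = 0.892), and it turned to 0.86 without fl/fl replicate 1. Sphk2 made up 89.9% to 97.7% of the kinase level per kilobase in the KO libraries and 74.9% to 98.6% in the fl/fl libraries. In the same GENCODE release, Sphk1 shares 192 exonic bases with the antisense gene Gm29292.

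The enzymes that remove S1P showed no change past the threshold. Sgpl1, the lyase that cleaves S1P irreversibly, was at 1679, 2038 and 2288 scaled counts in Prmt5 KO replicates 1 to 3, against 1994, 1884 and 1126 in Prmt5 fl/fl replicates 1 to 3. The ranges overlapped, and fl/fl replicate 3 was again the lowest. The log2 fold change was 0.30 with a standard error of 0.25 and a 95% interval of -0.28 to 0.87 (limma, adjusted p = 0.554). Without fl/fl replicate 3 it was 0.035. Sgpp1, the phosphatase that returns S1P to sphingosine, was at 4099, 4267 and 4018 scaled counts in Prmt5 KO replicates 1 to 3, against 4724, 4099 and 4080.4 in Prmt5 fl/fl replicates 1 to 3. Its standard error was the smallest of the 9 members. Its log2 fold change was -0.056 with a standard error of 0.12 and a 95% interval of -0.34 to 0.22 (limma, adjusted p = 0.830), a sign that turned with the scaling. Sgpl1 lies on chromosome 10 (61098642 to 61147703) and Sgpp1 on chromosome 12 (75714249 to 75735729).

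**Figure D2:**
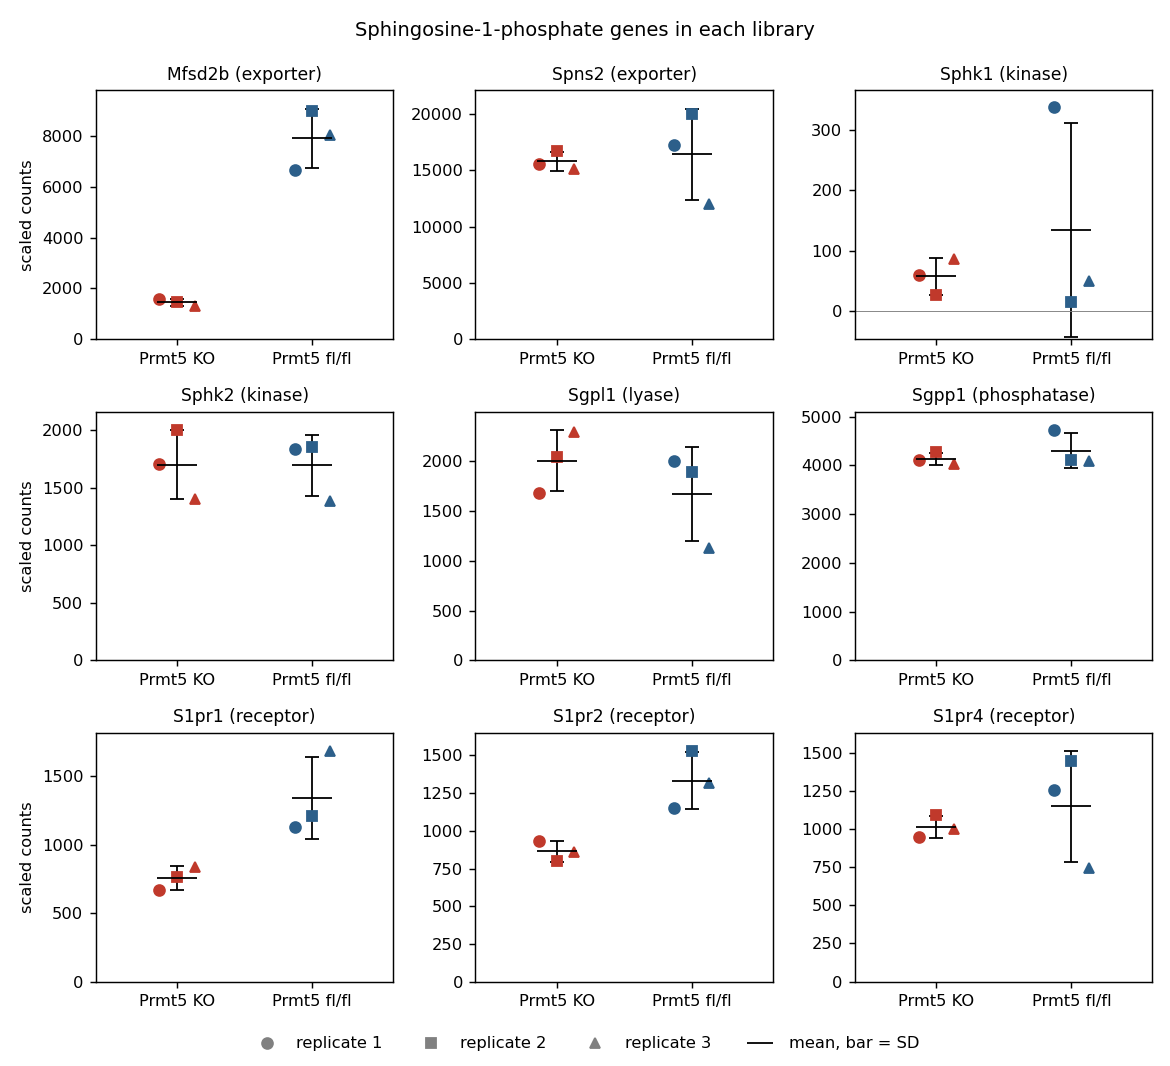
Each panel gives 1 gene in scaled counts (linear axis) in the 3 Prmt5 KO libraries (left) and the 3 Prmt5 fl/fl libraries (right), with symbols for the replicates and a line and bar for the mean and SD. The genotypes stand apart for Mfsd2b, S1pr1 and S1pr2 and overlap for the other 6 genes.

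Both S1pr1 and S1pr2 had lower values in every KO library than in any fl/fl library, without passing the test over all genes. S1pr1, the Gi-coupled receptor that drives migration toward S1P, was at 668, 763 and 839 scaled counts in Prmt5 KO replicates 1 to 3, against 1132, 1213 and 1684 in Prmt5 fl/fl replicates 1 to 3. The gap between the nearest libraries of the genotypes was wider than the whole KO range. The means were 757 ± 85.8 in Prmt5 KO and 1343 ± 298 in Prmt5 fl/fl (SD, n = 3 each), with a log2 fold change of -0.81 and an SE of 0.20 (limma, adjusted p = 0.104, and 0.00422 before adjustment). DESeq2 put S1pr1 past the threshold (adjusted p = 0.0263), and edgeR did not (adjusted p = 0.135). Over all alternatives the adjusted p of S1pr1 ran from 0.0263 to 0.343.

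S1pr2, a receptor that couples to G12 and G13 and restrains migration, was at 932, 799 and 859 scaled counts in Prmt5 KO replicates 1 to 3, against 1153, 1529 and 1318 in Prmt5 fl/fl replicates 1 to 3. The log2 fold change was -0.62, SE 0.17 (limma, adjusted p = 0.118, and 0.00645 before adjustment). S1pr1 and S1pr2 both kept a negative fold in all 16 alternatives, from -0.92 to -0.64 for S1pr1 and from -0.72 to -0.51 for S1pr2. Part of these could not have turned the sign. With the genotypes apart, leaving a library out cannot turn it, and the filters and replicate blocks leave the fold unchanged. S1pr4, a receptor largely restricted to blood and lymphoid cells, was at 945, 1089 and 998 scaled counts in Prmt5 KO replicates 1 to 3, against 1255, 1444 and 744 in Prmt5 fl/fl replicates 1 to 3. Here fl/fl replicate 3 lay below all KO libraries and replicates 1 and 2 above them. The log2 fold change was -0.13 with a standard error of 0.26 and a 95% interval of -0.73 to 0.46 (limma, adjusted p = 0.815). Without fl/fl replicate 3 it was -0.42 (limma, adjusted p = 0.122). S1pr1 lies on chromosome 3 (115710433 to 115715072), S1pr2 on chromosome 9 (20962361 to 20976781) and S1pr4 on chromosome 10 (81497747 to 81500132), each without an overlapping gene.

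The remaining receptors of the family were scarce. S1pr3 was at 93.3, 64.2 and 144 scaled counts in Prmt5 KO replicates 1 to 3, against 160, 66.0 and 127 in Prmt5 fl/fl replicates 1 to 3. S1pr5 was at 22.5, 0 and 10.6 scaled counts in Prmt5 KO replicates 1 to 3, against 4.05, 0 and 0 in Prmt5 fl/fl replicates 1 to 3, and was too low to be tested. In a library with 0 reads, up to 3.00 to 3.21 scaled counts are allowed (3 reads, counting error only). Per kilobase the 5 receptors summed to 1006 ± 29.5 in Prmt5 KO and 1423 ± 120.1 in Prmt5 fl/fl (SD, n = 3 each). S1pr1 held 22.6% to 26.7% of that sum in the KO libraries and 25.6% to 40.8% in the fl/fl libraries. S1pr4 held 40.3% to 45.3% in the KO libraries and 22.8% to 39.0% in the fl/fl libraries. S1pr2 held 28.2% to 33.9% in the KO libraries and 30.5% to 34.8% in the fl/fl libraries.

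All 9 members passed the filter on low values. Of the 8 besides Mfsd2b, limma called 0, against 0.730% of all genes tested (0.276% higher and 0.453% lower in Prmt5 KO). EdgeR called 0 of the 8, against 0.425% of all genes (0.241% higher and 0.184% lower). DESeq2 called 1 of the 8, lower in Prmt5 KO, against 7.10% of all genes (2.64% higher and 4.46% lower). Two-sided unadjusted p-values below 0.05 were found by limma for 2 of the 8, both lower in Prmt5 KO, against 18.2% of all genes (4.58% higher and 13.6% lower). The same 2, S1pr1 and S1pr2, had the genotypes apart, as did 28.2% of all genes (8.30% higher and 19.9% lower), so these 2 of 8 lie near the background. The median log2 fold change of the 8 was -0.094, against -0.048 over all genes tested.

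By level per kilobase, the order in Prmt5 KO was Spns2, Sgpp1, Sgpl1, Mfsd2b, S1pr4, Sphk2, S1pr2, S1pr1 and Sphk1. In Prmt5 fl/fl it was Spns2, Mfsd2b, Sgpp1, S1pr4, S1pr2, S1pr1, Sphk2, Sgpl1 and Sphk1. Mfsd2b thus had rank 4 in Prmt5 KO, where its range overlapped those of its neighbors Sgpl1 and S1pr4, and rank 2 in Prmt5 fl/fl, clear of the genes on either side. In Prmt5 fl/fl the run from S1pr4 to Sgpl1 could not be ordered, since each overlapped the next. In Prmt5 KO, S1pr2 and S1pr1 did not overlap each other or their other neighbors.

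One fl/fl library bears on several of these values. Prmt5 fl/fl replicate 3 differed from the other fl/fl libraries by gene length. With the tested genes in 5 length classes of nearly equal size, its median log2 difference was 0.46 in class 1 (up to 1543 bases) and -0.69 in class 5 (4707 bases and more). In the KO libraries the same medians lay between -0.14 and 0.11. Members measure 2296 to 4163 bases. In fl/fl replicate 3, Spns2, Sphk2 and Sgpl1, in class 4, were at -0.63, -0.42 and -0.78, beside a class median of -0.31, while Sgpp1 in the same class was at -0.11. Sphk1, in class 2, was at -0.54 beside a class median of 0.27. S1pr4 at -0.85 and S1pr1 at 0.52 lay on either side of the median of -0.0020 for class 3, while Mfsd2b was at 0.056. With the length trend removed from every library, the log2 fold change of Mfsd2b was -2.34, that of S1pr1 -0.72 (limma, adjusted p = 0.0867) and that of S1pr2 -0.51 (limma, adjusted p = 0.0941).

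**Figure D3:**
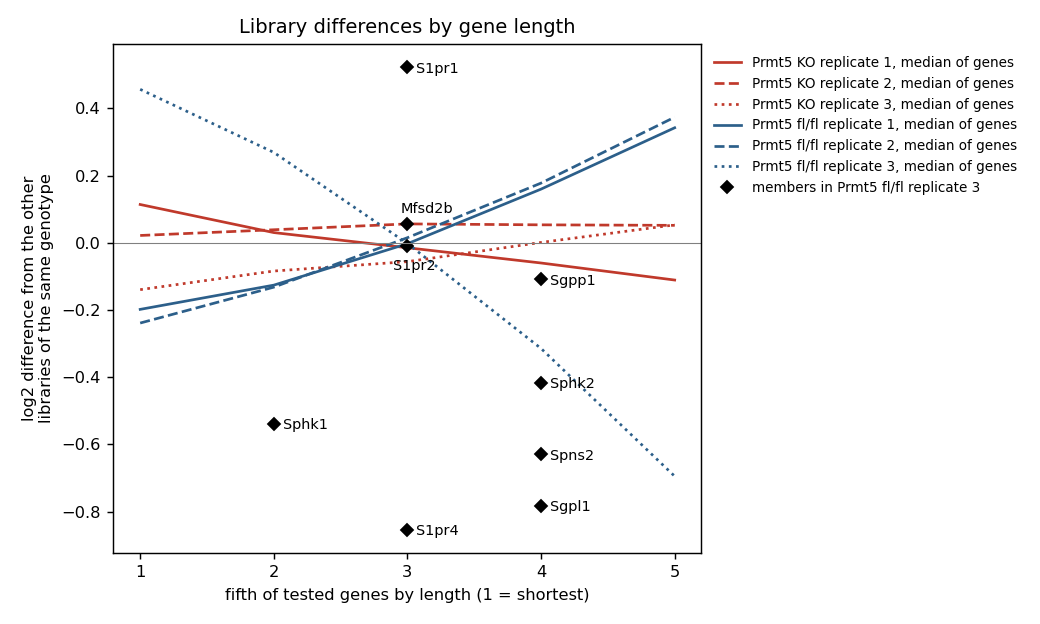
Lines give, for each library, the median log2 difference from the other libraries of its genotype over 5 classes of the tested genes by length, with Prmt5 KO in red and Prmt5 fl/fl in blue. Diamonds give the 9 members in Prmt5 fl/fl replicate 3, whose line runs from 0.46 for the shortest genes to -0.69 for the longest.

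Relatives of the exporters were read next. Spns3, a spinster family member whose substrate is less well known, lies 5014 bases from Spns2 on the same strand of chromosome 11. It was at 1196, 1229.5 and 1119.8 scaled counts in Prmt5 KO replicates 1 to 3, against 2122, 2488 and 3660.0 in Prmt5 fl/fl replicates 1 to 3. Its genotypes stood apart, unlike those of Spns2, with a log2 fold change of -1.18 and an SE of 0.21 (limma, adjusted p = 0.0614). Of all genes tested, 19.9% were apart in that direction. It passed the threshold without fl/fl replicate 3 (log2 -0.96; limma, adjusted p = 0.0253), with the length trend removed (limma, adjusted p = 0.0275) and with DESeq2 (adjusted p = 1.75e-04). Spns3 missed the threshold in every other alternative. These included edgeR (adjusted p = 0.0745), and the limma fits among them gave adjusted p of 0.0598 to 0.263, with 0.197 for replicate blocks. Mfsd2a, a relative of Mfsd2b that carries lysophosphatidylcholine at the blood-brain barrier, was at 72.1, 18.2 and 85.1 scaled counts in Prmt5 KO replicates 1 to 3, against 33.4, 6.00 and 10.6 in Prmt5 fl/fl replicates 1 to 3. Its groups overlapped (log2 1.81, standard error 0.81; limma, adjusted p = 0.292).

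None of the 56 tested genes in 5 related lists was past the limma threshold in either direction. Of these, 1 was higher and 6 lower at an unadjusted p below 0.05, edgeR called 0 and DESeq2 called 3, namely Spns3, Cers4 and Gba2. Over all genes tested, 4.58% were higher and 13.6% lower at that p, and DESeq2 called 7.10%, so the 56 genes together lay near or below the background. Among 9 further genes that handle S1P, the median log2 fold change was -0.15, with 0 at an unadjusted p below 0.05. Ppap2b, a lipid phosphate phosphatase that acts on S1P outside the cell, was at 428 ± 53.2 in Prmt5 KO and 691 ± 243 in Prmt5 fl/fl (log2 -0.63; limma, adjusted p = 0.326). Abcg2, the efflux pump of the side population, was at 5870.0 ± 589 in Prmt5 KO and 6540.4 ± 802 in Prmt5 fl/fl (log2 -0.15; limma, adjusted p = 0.594). The 3 transporter relatives had a median of -0.20, with 1 lower at an unadjusted p below 0.05.

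Downstream of the receptors, 16 genes of G protein coupling and receptor trafficking had a median log2 fold change of 0.17, with 14 folds above 0, against 44.8% of all genes, and 0 at an unadjusted p below 0.05. Without fl/fl replicate 3, 11 of the 16 folds were above 0, against 40.3% of all genes, and the median was 0.061. Arrb1, a beta-arrestin, was at 2961, 3534 and 3910.0 scaled counts in Prmt5 KO replicates 1 to 3, against 4471, 3716 and 1119 in Prmt5 fl/fl replicates 1 to 3, so its fold of 0.38 came with 1 low fl/fl library. Cd69, which binds S1PR1 and removes it from the cell surface, was at 1364, 648 and 1310.0 scaled counts in Prmt5 KO replicates 1 to 3, against 657, 587 and 827 in Prmt5 fl/fl replicates 1 to 3. The groups overlapped through KO replicate 2 (log2 0.62, standard error 0.31; limma, adjusted p = 0.343). Gna11, a Gq family subunit, was at 1696 ± 94.3 in Prmt5 KO and 1463 ± 136 in Prmt5 fl/fl (log2 0.22; limma, adjusted p = 0.458).

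In the synthesis of new sphingolipids, 13 tested genes had a median log2 fold change of -0.20, with 3 lower and 0 higher at an unadjusted p below 0.05, against 13.6% and 4.58% of all genes. Cers4, a ceramide synthase, was at 2285 ± 282 in Prmt5 KO and 3468 ± 414 in Prmt5 fl/fl (log2 -0.60; limma, adjusted p = 0.109). Ormdl2, an inhibitor of the first enzyme of the pathway, was at 1092 ± 89.4 in Prmt5 KO and 1581 ± 311 in Prmt5 fl/fl (log2 -0.52; limma, adjusted p = 0.193). Among 15 genes of ceramide, sphingomyelin and glycolipid turnover the median was -0.096, with 1 higher and 2 lower at an unadjusted p below 0.05. Gba2, the glucosylceramidase outside lysosomes, was at 6236, 6194 and 7186 scaled counts in Prmt5 KO replicates 1 to 3, against 3906, 4218 and 2669 in Prmt5 fl/fl replicates 1 to 3. Its genotypes did not overlap (log2 0.89, standard error 0.19; limma, adjusted p = 0.0784), and 8.30% of all genes were apart in that direction. It passed without fl/fl replicate 3 (log2 0.68; limma, adjusted p = 0.0309) and with DESeq2 (adjusted p = 8.44e-04). Gba2 missed the threshold with edgeR (adjusted p = 0.0884) and with replicate blocks (limma, adjusted p = 0.223). Asah1, the acid ceramidase that frees sphingosine, was at 2797 ± 121 in Prmt5 KO and 4217 ± 879 in Prmt5 fl/fl (log2 -0.57; limma, adjusted p = 0.140).

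**Figure D4:**
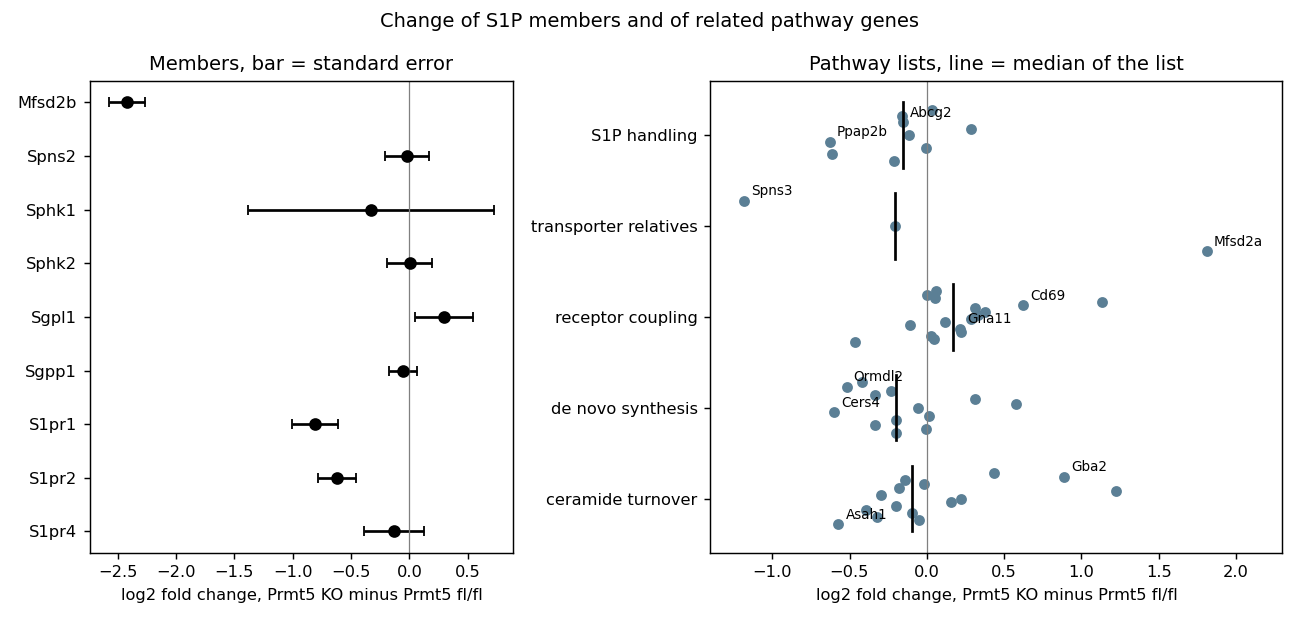
The left panel gives the log2 fold change, Prmt5 KO minus Prmt5 fl/fl, of the 9 members with its standard error, and the right panel gives the 56 tested genes of the related lists with the median of each list as a line. Mfsd2b at -2.42 lies far to the left, followed by S1pr1 at -0.81 and S1pr2 at -0.62, and list medians run from -0.20 to 0.17.

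MFSD2B is known from red cells and platelets, and some markers of both lineages were lower in the same libraries. Of 12 tested red cell precursor markers, 2 fell and 0 rose: Klf1 (log2 -2.11; limma, adjusted p = 0.0476) and the membrane protein Rhag (log2 -1.97; limma, adjusted p = 0.0195). Of 16 megakaryocyte and platelet markers, 2 fell and 0 rose: Itga2b (log2 -1.95; limma, adjusted p = 0.0195) and Rab27b (log2 -0.91; limma, adjusted p = 0.0475). The background for lower genes was 0.453%. At an unadjusted p below 0.05, limma had 6 red cell markers lower and 0 higher, and 8 megakaryocyte markers lower and 1 higher, against 13.6% of all genes lower and 4.58% higher. DESeq2 called 4 red cell markers, all lower, and 7 megakaryocyte markers, of which 1 was higher. That gene was Selp, the platelet and endothelial adhesion molecule P-selectin, at 7962, 4856 and 7394 scaled counts in Prmt5 KO replicates 1 to 3, against 3157, 3494 and 4690.4 in Prmt5 fl/fl replicates 1 to 3. Every KO library was above every fl/fl library for Selp (log2 0.82; limma, adjusted p = 0.130; DESeq2, adjusted p = 0.0103), as for 8.30% of all genes tested. The other folds above 0 were those of Tfrc, the transferrin receptor (0.30), the platelet chemokine Ppbp (0.77) and the collagen receptor Gp6 (0.55), with limma adjusted p of 0.702, 0.663 and 0.877. Selp, Tfrc, Ppbp and Gp6 were named after their values were seen. In the fit with replicate blocks the limma adjusted p was 0.161 for Klf1 and Rhag, 0.103 for Itga2b and 0.197 for Rab27b. Leaving out any library but fl/fl replicate 3 made all of them miss the threshold, with limma adjusted p of 0.0627 to 0.220. Klf1 and Rab27b also missed it with edgeR (adjusted p = 0.0653 each) and with limma after median-of-ratios or quantile scaling (adjusted p = 0.0566 to 0.0681). Klf1 missed it as well with all detected genes kept (limma, adjusted p = 0.0570), and Rab27b with the length trend removed (limma, adjusted p = 0.0689).

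The summed red cell markers were at 7463 to 8832 scaled counts in Prmt5 KO and at 11870.0 to 23870.4 in Prmt5 fl/fl. Their median log2 fold change was -2.03. Globin genes Hba-a1, Hba-a2, Hbb-bs and Hbb-bt were listed at 0 in every library, and the values of such near-identical copies are uncertain. The summed megakaryocyte and platelet markers were at 71960.3 to 98165 in Prmt5 KO and at 114954 to 156089 in Prmt5 fl/fl, with a median of -0.63. Within the fl/fl group Mfsd2b was lowest in replicate 1, where the red cell sum was highest and the megakaryocyte sum lowest. Gata1, Epor and Rhag were instead highest in replicate 3 of that group, while the other tested red cell markers were highest in replicate 1. This order only describes 3 libraries, and Mfsd2b was chosen for its fall. The part of either lineage in the Mfsd2b level was not tested.

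**Figure D5:**
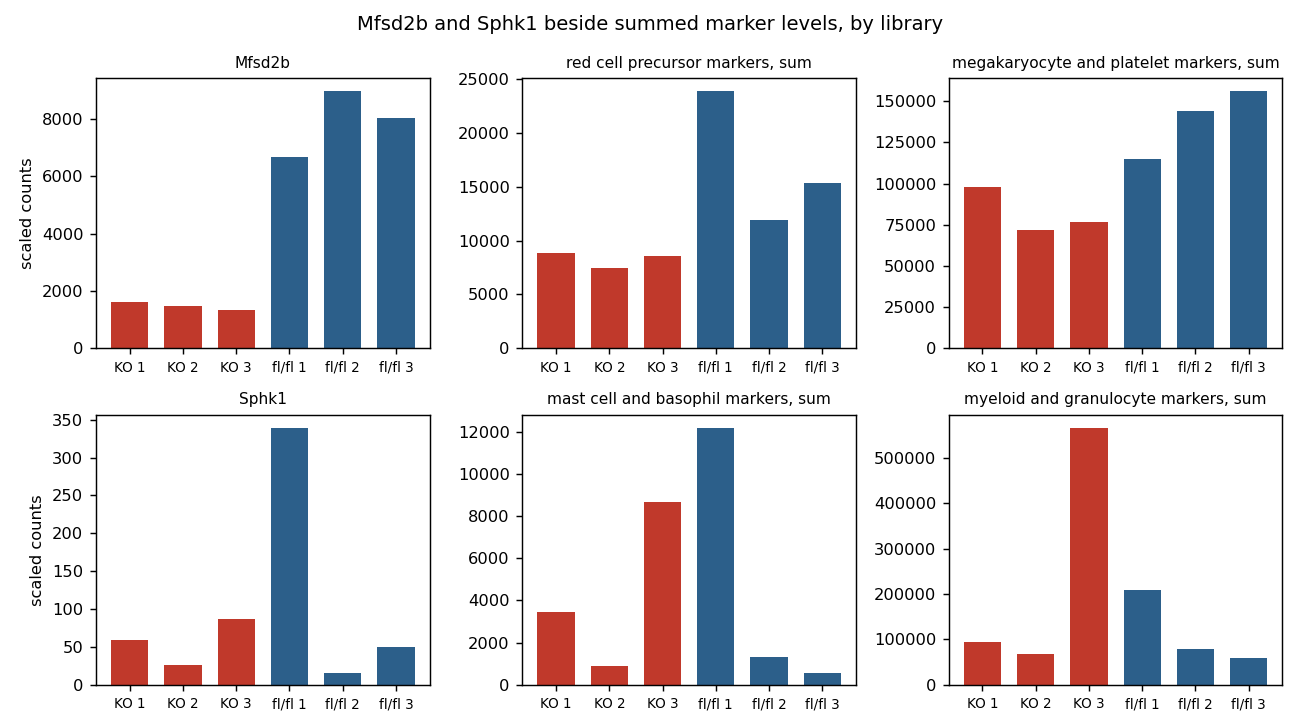
Bars give Mfsd2b, Sphk1 and the summed levels of 4 marker lists in scaled counts for the 6 libraries, Prmt5 KO in red left of Prmt5 fl/fl in blue. Mfsd2b and the red cell and megakaryocyte sums are lower in each KO library than in each fl/fl library, and Sphk1 and the mast cell and basophil sum both peak in fl/fl replicate 1.

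Markers of other blood lineages also varied between libraries. Mast cell and basophil markers summed to 3463, 888 and 8674 scaled counts in Prmt5 KO replicates 1 to 3, against 12175, 1333 and 549.6 in Prmt5 fl/fl replicates 1 to 3. In KO replicate 3, Hdc alone gave 6760 of the 8674. Mcpt8, Prss34, Fcer1a, Ms4a2 and Cpa3 were lower there than in KO replicate 1, and Cma1 was higher. The 3 libraries with the most Sphk1, fl/fl replicate 1, KO replicate 3 and KO replicate 1, also had the 3 highest sums. The other libraries did not follow that order, since fl/fl replicate 3 had the lowest sum but more Sphk1 than KO replicate 2 and fl/fl replicate 2. Cpa3, a mast cell protease, was at 295, 80.2 and 220 scaled counts in Prmt5 KO replicates 1 to 3, against 728, 276 and 251 in Prmt5 fl/fl replicates 1 to 3 (log2 -1.09; limma, adjusted p = 0.371). Cpa3 was highest in fl/fl replicate 1 but lower in KO replicate 3 than in any fl/fl library. Myeloid and granulocyte markers summed to 93881, 67499 and 565554 in Prmt5 KO replicates 1 to 3, against 208369, 79670.0 and 59998 in Prmt5 fl/fl replicates 1 to 3. These sums were highest in the same 3 libraries as the mast cell sum, with KO replicate 3 first. The part of either lineage in the Sphk1 value was not tested.

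The remaining lists gave 0 calls by limma in Prmt5 KO against Prmt5 fl/fl. Lymphocyte markers summed to 5683 to 6999 in Prmt5 KO and 6475 to 10188 in Prmt5 fl/fl, and Cd3e was at 0 to 154 in Prmt5 KO and 3.00 to 14.2 in Prmt5 fl/fl. Endothelial markers summed to 219 to 643 in Prmt5 KO and 381 to 585 in Prmt5 fl/fl. The 10 genes of the gate and of stem cell identity summed to 82215 to 91637 in Prmt5 KO and 58003 to 97742 in Prmt5 fl/fl. At an unadjusted p below 0.05 limma found 1 lymphocyte marker (Cd4) lower, 1 myeloid marker lower, 2 stem cell genes higher, and 0 mast cell and endothelial markers. EdgeR called 0 in these 5 lists, and DESeq2 called 1 lymphocyte marker, Cd8a, and 1 stem cell gene, Procr, both higher in Prmt5 KO. Cd8a was at 0, 9.62 and 87.4 scaled counts in Prmt5 KO replicates 1 to 3, against 0, 1 and 0 in Prmt5 fl/fl replicates 1 to 3, so KO replicate 3 held most of its reads (DESeq2, adjusted p = 0.0281; limma, adjusted p = 0.383). Ly6a and Slamf1, which encode the gate markers Sca-1 and CD150, were at 4969 or more and 2731 or more scaled counts in every library. Kit, a stem cell gene that is not part of the gate described, was at 19323 or more.

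The 5 genes whose log2 values were most like those of Mfsd2b over the 6 libraries were Prodh, Prmt5, Ache, Hook2 and Cenpc1, with Pearson r of 0.996, 0.994, 0.991, 0.990 and 0.988. These correlations describe 6 libraries that fall into 2 genotypes and share the scaling. Each of the 5 genes was lower in every KO library than in any fl/fl library, as were 19.9% of all genes tested. Since the 5 were picked for their likeness to Mfsd2b, that separation is not a separate result. Prodh, proline dehydrogenase, was at 2180 ± 25.1 in Prmt5 KO and 3576 ± 181 in Prmt5 fl/fl. Ache, acetylcholinesterase, was at 828 ± 91.5 in Prmt5 KO and 2300.1 ± 239 in Prmt5 fl/fl. Hook2, a microtubule-linked adaptor, was at 1033 ± 94.7 in Prmt5 KO and 1942 ± 158 in Prmt5 fl/fl, and Cenpc1, a centromere protein, was at 2490.3 ± 46.8 in Prmt5 KO and 3767 ± 41.1 in Prmt5 fl/fl (SD, n = 3 each).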

How the data were processed

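RNA from 6 pools of sorted stem cells was amplified with SMART-Seq v4 and made into libraries with Nextera XT, per the labels' protocols. Neither kit marks strand. Reads were aligned with STAR and counted with featureCounts on mm10, per the submitters' processing notes, with versions and annotation not given in the sources used. In the table the authors deposited, Prmt5 fl/fl replicate 2 is in read counts. The 5 remaining libraries are deposited as a scaled signal, the count times 44704636 over the library's own total, and undoing it gave whole reads for 100% of values (tolerance 1e-06). The authors deposited 1 gene length per gene, used here for levels per kilobase.

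Genes with a mean of at least 10 (14113) were compared as log2(value + 1) with limma's trended test, two-sided, adjusted by Benjamini-Hochberg over all of them, threshold 0.05. Fold changes of low genes are understated on this scale. Intervals are at 95% and not adjusted for the number of genes. R 4.3.3, limma 3.58.1, edgeR 4.0.16, DESeq2 1.42.0, Python 3.11.15 and matplotlib 3.10.9 were used, and the limma script was tested on simulated data. The members and lists were chosen with earlier results of these data known. Named genes were the members, Prmt5, genes past the threshold or else the 2 with the smallest p in each of 12 lists, and the 5 most like Mfsd2b, printed where a result turned on them. Other genes were named after their values were seen. The 16 alternatives included edgeR's quasi-likelihood test and DESeq2 on the recovered reads, other scalings, filters and pseudocounts, replicate blocks, each library left out, and a loess fit that removed the trend with gene length.

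Each library is a separate pool of animals, and the p-values weigh the difference between genotypes against the variation between such pools. Replicate numbers go with title prefixes shared across genotypes, and mice were litter-matched. The numbers were therefore taken as pairs in the replicate blocks, although the labels do not explain the prefix. The main test did not use the pairs. Deviations from the group means correlated at -0.14, 0.067 and -0.26 within the 3 pairs. All libraries differed beyond counting error (chi-square over degrees of freedom 26.2 to 357).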

Additional observations from a re-analysis of the deposited data

How the results depend on the processing

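The number of genes higher and lower in Prmt5 KO depended on the processing, while the 8 members besides Mfsd2b stayed uncalled in every alternative but 1. Against 39 higher and 64 lower, DESeq2 called 365 and 616, and removal of the length trend, chosen after the data were seen, gave 225 and 234. Fewer genes were lower with all detected genes kept (38), median-of-ratios size factors (22), quantile normalization (26) and edgeR (26). Replicate blocks left 1 gene higher and 0 lower, and 1981 genes had an unadjusted p below 0.05. With each library left out, the counts ran from 1 to 121 higher and from 2 to 257 lower, the highest without fl/fl replicate 3. The share of higher genes among calls was 37.9%, and 61.4% with median-of-ratios size factors, 59.4% with quantile normalization, 56.7% with edgeR and 49.0% with the length trend removed. The members' count was 0, and 1 with DESeq2 (S1pr1). The cause of these shifts was not tested.

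Folds near 0 changed sign. That of Spns2 was 0.063 with median-of-ratios size factors, 0.0079 with edgeR, 0.033 with DESeq2, 0.030 with the length trend removed, and -0.23 to 0.13 with a library left out. That of Sgpp1 was 0.031, 0.0028, 0.027 and 0.0058 under the same 4 alternatives, and -0.093 to 0.013 with a library left out. Sphk2 was at -0.014 and S1pr4 at 0.017 with the length trend removed. With a library left out, Sphk1 ran from -1.34 to 0.86, Sphk2 from -0.13 to 0.14 and S1pr4 from -0.42 to 0.062. The log2 fold change of Mfsd2b lay between -2.54 and -2.33 in the 16 alternatives. That range is a description, since the fall of Mfsd2b chose the members and the filters and replicate blocks cannot move its fold. The replicate block ended the calls of Prmt5 (limma, adjusted p = 0.0618), Klf1, Rhag, Itga2b, Rab27b, Ache and Hook2, and of no other named gene.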
